A study of Mus musculus with 13 samples.

Results

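The comparison described here is that of plasmacytoid dendritic cells (pDCs) with CD8α conventional dendritic cells (CD8α cDCs) of the mouse spleen, each represented by 2 arrays of the 13 in the series, chosen by their titles. Both populations came from untreated wild-type C57BL/6 mice. For each array the spleens of 10 to 15 mice were pooled, digested with collagenase and sorted, and the replicates were sorted in 2 independent experiments that both populations shared. Which arrays of the pair came from the same experiment is not given in the sources used here. Age (6 to 8 weeks) and sex (female) are labelled for CD8α cDC replicate 1 alone among these 4 arrays. The pDCs were sorted as lineage-negative CD11c+ cells with bright staining by 120G8, an antibody to Bst2, and the CD8α cDCs as lineage-negative cells bright for CD11c, positive for CD8α and negative or dim for 120G8. RNA was amplified in successive rounds and hybridised to Affymetrix Mouse Genome 430 2.0 arrays, on which a gene is read by probe sets of short oligonucleotides. The other 9 arrays, of CD11b cDCs and of 3 kinds of splenic lymphocyte, entered the choice of probe sets, the signal filter and the estimate of the spread between replicates, and are not compared here.

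pDCs are round dendritic cells that circulate through lymphoid organs and release large amounts of type I interferon when their endosomal Toll-like receptors meet viral nucleic acids. They depend on the E protein Tcf4 and keep features of lymphoid cells, among them secretory organelles and parts of the B cell signalling machinery. CD8α cDCs, also called cDC1, depend on Irf8, Batf3 and Id2, take up material of dead cells, and present it on class I molecules to CD8 T cells, whom they also supply with costimulation and interleukin-12. As the arrays hold RNA of whole sorted populations, fewer expressing cells and less RNA per cell cannot be told apart for any gene below.

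The measured quantity is the MAS5 signal deposited by the authors, a linear intensity per probe set. All signals are given per array, replicate 1 before replicate 2. Values below 20 were set to this floor before log2 transformation, and 55 to 58.3% of the probe sets of each of the 4 arrays lay under it. Differences are log2 of pDCs minus CD8α cDCs, positive when pDCs were higher, with the standard error and the Benjamini-Hochberg adjusted p of limma over 9391 genes, in 1 linear model of all 13 arrays. A gene is called when that adjusted p is under 0.05. A fold against a population below the floor on both arrays is relative to 20 and written as a lower bound. The replicates correlated at 0.98 for pDCs and 0.986 for CD8α cDCs over these genes. All 4 arrays shared the scan day and the chip lot. They were hybridised at 2 times, pDC replicate 1 with CD8α cDC replicate 2 and pDC replicate 2 with CD8α cDC replicate 1. A fit with hybridisation time as a block is given where it ends a call. That fit held these 4 arrays alone, which gave 3185 calls without the block, so the block and the smaller fit are not separated there. The GAPDH control probe sets gave 3′ to 5′ signal ratios of 4.12 and 5.99 in pDCs and 3.49 and 3.46 in CD8α cDCs. The record of pDC replicate 2, which had the highest of these ratios, lists 89 ng of starting RNA, whereas the other 3 list 100 ng. With 2 arrays per population the p-values rest on a spread pooled over all 6 populations, which includes lymphocyte arrays from as few as 1 mouse, and the B cell replicates correlated least (0.934). Without the B cell arrays 4044 genes were called in place of the 3446 given below. For a gene above the floor on all 4 arrays, a fit without the floor changes this pooled spread and not the difference.

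Of the 9391 genes tested, 3446 (36.7%) differed between the populations at an adjusted p under 0.05, of which 1722 (18.3%) were higher in pDCs and 1724 (18.4%) were higher in CD8α cDCs. At least 2-fold differences made up 1200 (12.8%) and 1135 (12.1%) of the genes tested. At 16-fold or more, 106 genes were higher in pDCs and 86 in CD8α cDCs. The arrays of the populations did not overlap for 6673 genes (71.1%), so lack of overlap alone says little about a gene here. For 271 genes higher in pDCs, both CD8α cDC arrays were below the floor, and for 200 genes higher in CD8α cDCs both pDC arrays were. With 1 of the 4 arrays left out, between 2421 and 2827 genes were called, and with hybridisation time as a block 2399.

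**Figure D1:**
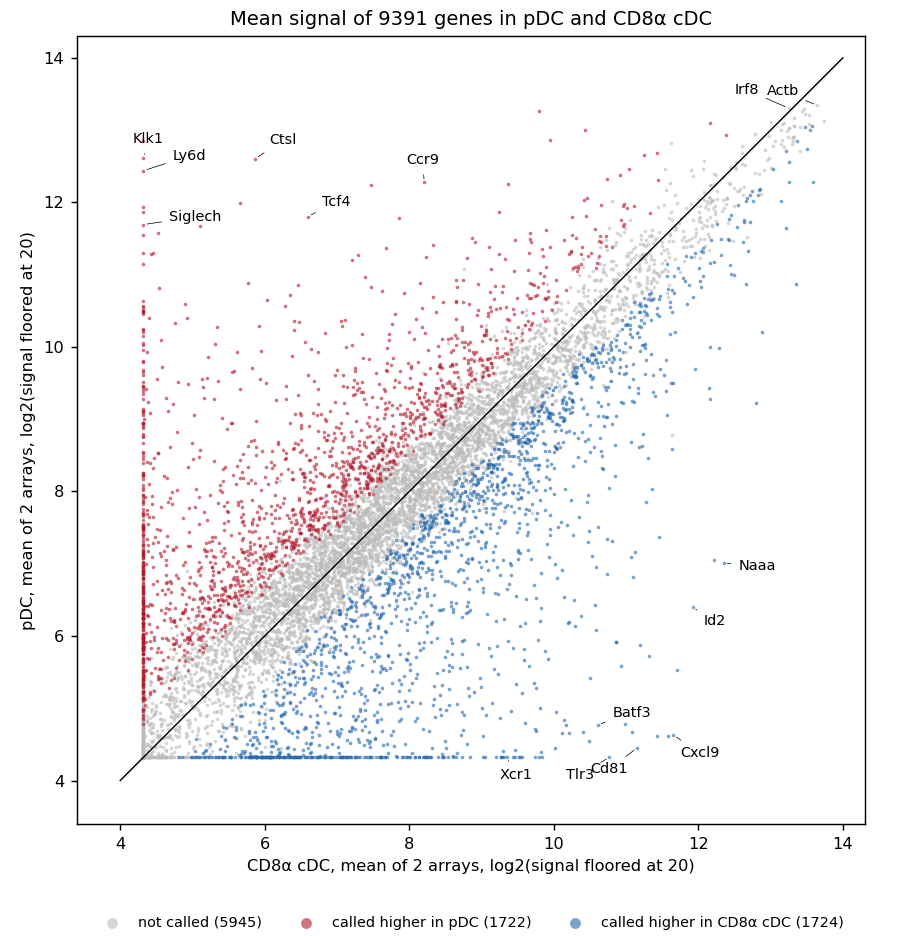
Mean log2 signal (floored at 20) of 9391 genes in CD8α cDCs on the horizontal axis and in pDCs on the vertical axis, each the mean of 2 arrays, with genes called higher in pDCs in red, genes called higher in CD8α cDCs in blue and others in grey. Points on the left and lower edges lie at the floor in the lower population; the 1722 red and 1724 blue genes are nearly equal in number, and Irf8 lies near the diagonal at the upper end.

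The markers bore out both labels. Siglech, a surface lectin of mouse pDCs that signals through an ITAM adaptor, had signals of 3613 and 3038 on the pDC arrays and of 1.75 and 2.71 on the CD8α cDC arrays. Both pDC arrays were high and both CD8α cDC arrays were far below the floor, a difference of at least 166-fold (log2 7.37, SE 0.18, adjusted p = 8.56e-10). Xcr1, the chemokine receptor by which cDC1 find cells that release XCL1, read 9.93 and 7.1 in pDCs and 673 and 633 in CD8α cDCs. It was at least 32.6-fold higher in CD8α cDCs (log2 -5.03, SE 0.14, adjusted p = 1.25e-09). Each of these genes thus marked the arrays of its own population and was at background on the others.

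The promoters of these genes are printed because they stand for the opposite ends of the comparison and because Tcf4, described below, binds E-boxes. RefSeq gives them on GRCm38.p6 from 250 bases before to 50 bases after the transcript start, in the direction of transcription. The capitals mark a single form of E-box, CACCTG, on either strand, and other forms were not searched.
Siglech promoter, chr7:55767934-55768233, plus strand: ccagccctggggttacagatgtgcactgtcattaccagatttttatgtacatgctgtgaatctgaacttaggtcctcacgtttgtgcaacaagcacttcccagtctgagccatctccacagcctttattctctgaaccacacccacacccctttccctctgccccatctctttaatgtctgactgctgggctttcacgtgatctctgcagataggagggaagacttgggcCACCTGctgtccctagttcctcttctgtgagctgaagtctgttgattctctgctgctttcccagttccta
Xcr1 promoter, chr9:123861980-123862279, minus strand: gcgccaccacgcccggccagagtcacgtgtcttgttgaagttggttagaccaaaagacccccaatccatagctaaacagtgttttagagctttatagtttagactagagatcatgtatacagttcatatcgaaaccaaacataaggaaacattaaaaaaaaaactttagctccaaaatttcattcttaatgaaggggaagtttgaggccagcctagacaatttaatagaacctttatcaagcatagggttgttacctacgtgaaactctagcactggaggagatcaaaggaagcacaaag
The Siglech window holds 1 CACCTG and the Xcr1 window holds none. Both windows hold CACGTG, another form of E-box, which is not marked. Among 12 promoters found for 11 pDC marker genes, 41.7% hold CACCTG, and among 14 promoters of 13 cDC1 marker genes 0 do, beside 20.2% of 32851 promoters of the same length. These letters describe the windows and are no measurement of binding.

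Of 16 pDC marker genes tested, 15 were higher in pDCs and none was higher in CD8α cDCs, with a median log2 difference of 6.09 (median of all genes 0). These markers passed the signal filter mostly through the population in which they are known to be high, so their count is a check of the labels. Klk1, a tissue kallikrein, was at 6930 and 5688 in pDCs and at 5.63 and 6.05 in CD8α cDCs, at least 314-fold apart (log2 8.29, SE 0.15, adjusted p = 2.09e-10), on a probe set whose oligonucleotides may also match other kallikreins. Ly6d, a lymphoid surface antigen, was at 6094 and 5062 against 9.43 and 12.3 (at least 278-fold, log2 8.12, SE 0.37, adjusted p = 3.71e-08). Ccr9, a chemokine receptor for CCL25 in gut and thymus, was high but not exclusive, with 4877 and 5046 in pDCs and 271 and 322 in CD8α cDCs (log2 4.07, SE 0.32, adjusted p = 2.36e-06). Lag3, an inhibitory receptor for class II molecules, had signals of 652 and 440 against 31.2 and 33.9 (log2 4.04, SE 0.19, adjusted p = 4e-08). Pld4, an endolysosomal nuclease, was the member not called, with 6002 and 5273 in pDCs and 2865 and 3073 in CD8α cDCs (log2 0.92, SE 0.72, adjusted p = 0.352). All 4 arrays were thus high for Pld4, and the pDC arrays lay above the others without passing the test in the 13-array model. Pld4 passed in the fit to the 4 arrays (adjusted p = 0.0167), in that to the 6 dendritic cell arrays (adjusted p = 0.00924) and without the B cell arrays (adjusted p = 0.0126).

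All 17 of the CD8α cDC markers tested were higher in CD8α cDCs, with a median log2 difference of -4.04. Rab7b, a small GTPase of late endosomes, was at 21.2 and 28.3 in pDCs and at 2780 and 2725 in CD8α cDCs (log2 -6.81, SE 0.16, adjusted p = 8.17e-10). Gcsam, an adaptor also known from germinal centre B cells, stayed under 1 on both pDC arrays (0.652 and 0.966) and reached 956 and 881 in CD8α cDCs, at least 45.9-fold more (log2 -5.52, SE 0.18, adjusted p = 3.94e-09). Itgae, the αE integrin chain CD103, read 0.757 and 12.9 against 869 and 903 (at least 44.3-fold, log2 -5.47, SE 0.22, adjusted p = 1.19e-08). Gcsam and Itgae thus stayed below the floor on both pDC arrays, whereas other members were well detected and lower there. Wdfy4, which cDC1 need for cross-presentation, had 1207 and 1162 in pDCs and 7380 and 7652 in CD8α cDCs (log2 -2.67, SE 0.17, adjusted p = 5.14e-07). Btla, an inhibitory receptor, had 578 and 908 against 3358 and 2975 (log2 -2.13, SE 0.24, adjusted p = 5.13e-05). The smallest differences in this list were those of Fkbp1b, an FK506-binding protein (-1.66, adjusted p = 0.000108), and of Cd24a, the heat-stable antigen (-1.9, adjusted p = 0.0134), whose call was lost without any of the 4 arrays (adjusted p = 0.0608 to 0.0764).

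Of the antigens used for sorting, Bst2, Itgax and Cd8a differed as the gates prescribe and are no findings. Bst2 was at 5780 and 4035 in pDCs and 155 and 202 in CD8α cDCs. Itgax, the CD11c chain, was at 1245 and 1409 against 2749 and 2449, and Cd8a at 781 and 1047 against 3087 and 2916. The Cd8a signal of the pDC arrays was thus well above the floor. Cd8b1, the CD8β chain that pairs with CD8α in T cells and was not a sort antigen, went the opposite way, with 1295 and 1088 in pDCs and 19.7 and 16.6 in CD8α cDCs (at least 59.3-fold, log2 5.89, SE 0.24, adjusted p = 1.62e-08). The transcripts of both CD8 chains were therefore present on the pDC arrays, and that of the α chain alone on the CD8α cDC arrays. The Cd3 genes of T cells were below 20 on all 4 arrays.

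**Figure D2:**
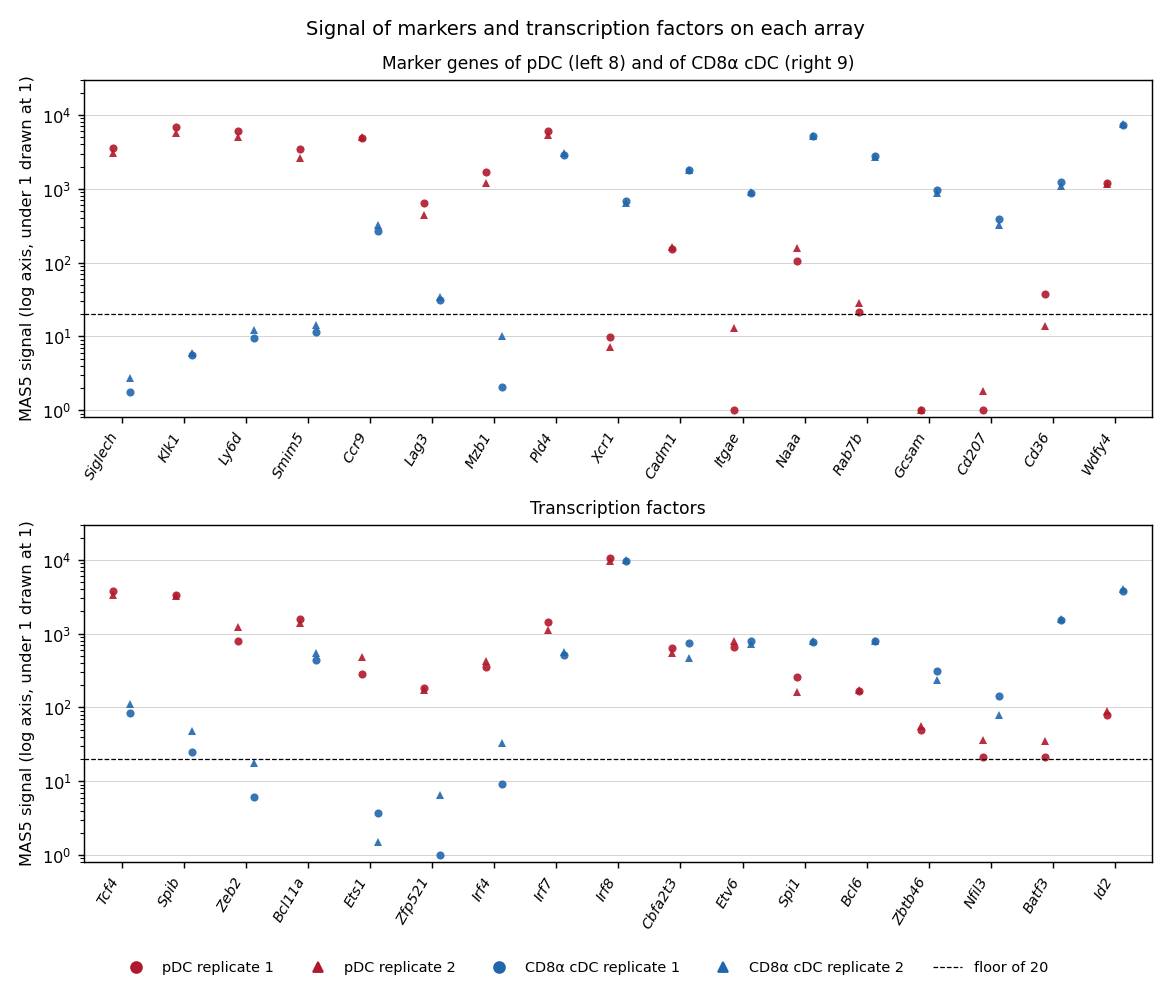
Signal (log axis) of marker genes in the upper panel and of transcription factors in the lower panel on each of the 4 arrays, with pDCs in red and CD8α cDCs in blue, replicate 1 as circles and replicate 2 as triangles. The dashed line is the floor of 20, and signals under 1 are drawn at 1. Replicates lie close together, Pld4 and Irf8 are high on all 4 arrays, and most other genes are near or below the floor on 1 side.

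The transcription factor genes Tcf4 and Id2 differed in opposite directions. Their products antagonise each other because Id proteins sequester E proteins, which was not tested here. Tcf4 had signals of 3832 and 3342 in pDCs and of 84.6 and 111 in CD8α cDCs (log2 5.2, SE 0.18, adjusted p = 5.55e-09), and each of its 4 other tested probe sets was called in the same direction. Id2 showed the reverse, with 78.5 and 90.5 against 3729 and 4046 (log2 -5.53, SE 0.34, adjusted p = 3.29e-07). Of 15 factors listed for pDC development, 10 were higher in pDCs and none was higher in CD8α cDCs (median 1.99). That is 66.7% called, beside 36.7% of all genes. Spib, an Ets factor that supports pDC survival, read 3310 and 3207 against 24.8 and 48.1 (log2 6.56, SE 0.32, adjusted p = 5.8e-08). Zeb2, a repressor of Id2, read 796 and 1240 against 6.03 and 17.6 (at least 49.7-fold, log2 5.63, SE 0.34, adjusted p = 2.95e-07). Ets1 was at 288 and 482 in pDCs and below 4 in CD8α cDCs (3.73 and 1.52, at least 18.6-fold). Tcf12, another E protein, was at 1311 and 1510 against 226 and 222 (log2 2.65, SE 0.21, adjusted p = 3.02e-06). For each of these 2 genes, 2 other probe sets were called in the same direction, but 2 of Tcf12 and 1 of Ets1 were not called. The related E protein Tcf3 was not called (140 and 122 against 118 and 126, adjusted p = 0.809), nor was Cbfa2t3, which acts with Tcf4 (629 and 538 against 736 and 463, adjusted p = 1).

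Irf8, the interferon regulatory factor required for CD8α cDCs and highly expressed in pDCs, was among the 5 highest genes of both populations that were not called. Its signals were 10515 and 9727 in pDCs and 9575 and 9918 in CD8α cDCs, so that the arrays overlapped (log2 0.05, SE 0.14, adjusted p = 0.822). CD11b cDCs had a mean of 727 on the same probe set. Irf7, the driver of the interferon response, was at 1423 and 1133 in pDCs and 513 and 558 in CD8α cDCs and did not pass the test (log2 1.25, SE 0.47, adjusted p = 0.062). Irf7 passed in the fit to the 4 arrays alone (adjusted p = 0.0191) and in the fit without the B cell arrays (adjusted p = 0.000688).

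Among 15 factors listed for cDC development, 9 were higher in CD8α cDCs and 2 in pDCs (median -1.03). The share called was 73.3%, beside 36.7% of all genes. Batf3, without which cDC1 do not develop, had 21.1 and 35.4 in pDCs and 1546 and 1579 in CD8α cDCs (log2 -5.84, SE 0.24, adjusted p = 1.62e-08). Zbtb46, a factor specific to conventional DCs, followed with 48.8 and 56 against 313 and 236 (log2 -2.38, SE 0.24, adjusted p = 1.98e-05), and Bcl6 with 165 and 172 against 783 and 803 (log2 -2.24, SE 0.25, adjusted p = 4.38e-05). Spi1 (PU.1) was lower in pDCs but well detected, at 261 and 164 against 776 and 784 (log2 -1.92, SE 0.26, adjusted p = 0.00017). The members higher in pDCs were Irf4, at 358 and 431 against 9.24 and 33.1 (log2 3.93, SE 0.33, adjusted p = 4.11e-06), and Cebpb, at 65.8 and 116 against 22.7 and 18.8 (log2 2.03, SE 0.42, adjusted p = 0.00322). Irf4 is known for its role in CD11b cDCs and plasma cells, and Cebpb for myeloid cells. Klf4, a zinc finger factor, had 1769 and 2656 in pDCs and 527 and 355 in CD8α cDCs, but it did not pass the test (log2 2.32, SE 1.13, adjusted p = 0.135).

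**Figure D3:**
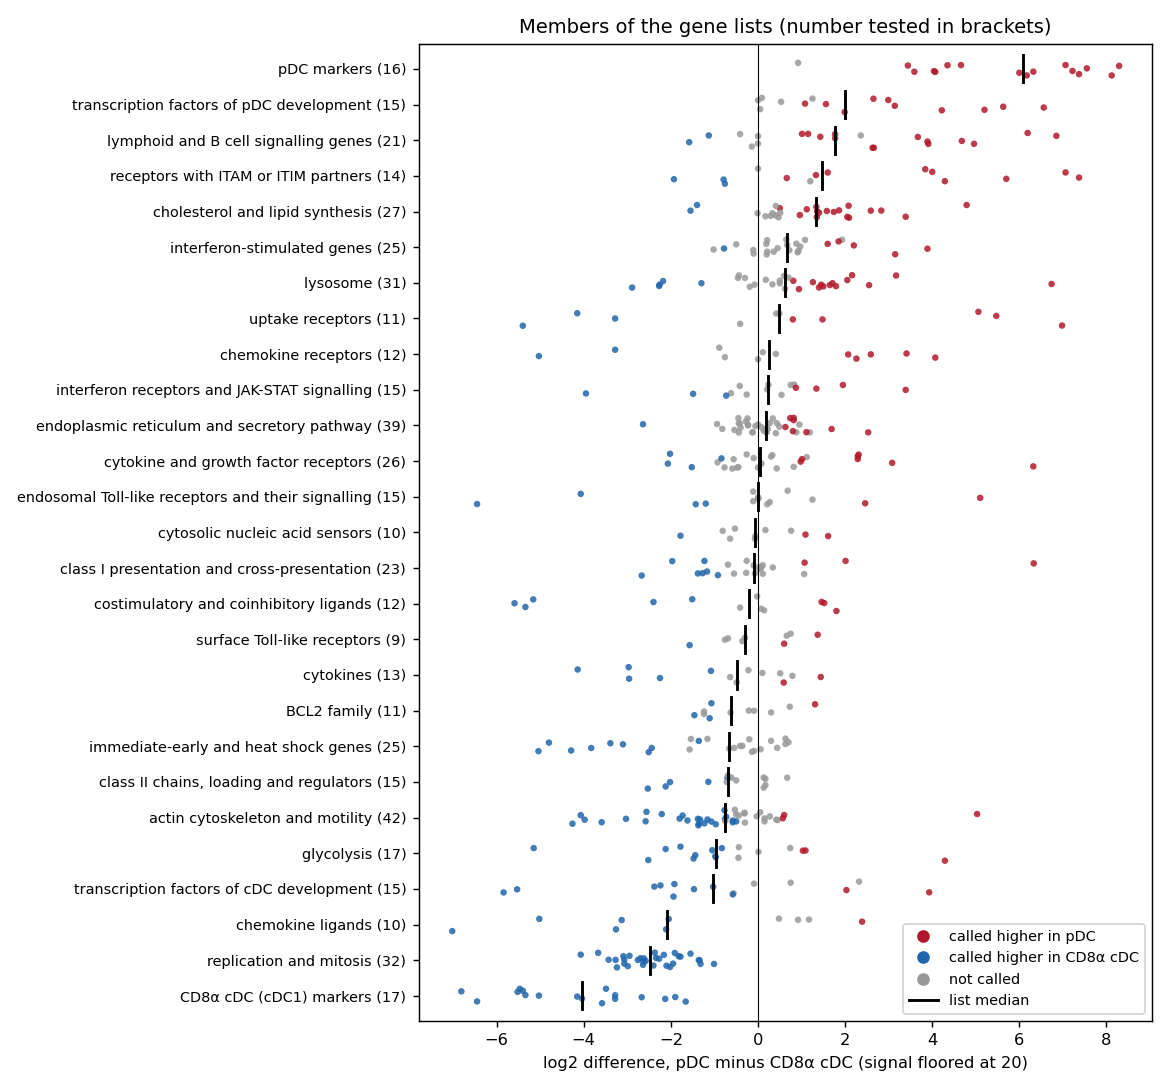
Log2 difference of pDCs minus CD8α cDCs (signal floored at 20) for each tested member of 27 gene lists, in order of the list median (black bar), with members called higher in pDCs in red, called higher in CD8α cDCs in blue and not called in grey. The medians run from 6.09 for pDC markers to -4.04 for CD8α cDC markers; replication and mitosis genes lie on the CD8α cDC side without exception, and most lists hold members on both sides.

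The lymphoid genes of pDCs formed a broad group. Of 21 lymphoid and B cell signalling genes tested, 14 were higher in pDCs, 2 were higher in CD8α cDCs and 5 were not called (median 1.77). The share called was 76.2%, beside 36.7% of all genes. Blnk, the adaptor that links the B cell receptor to phospholipase C, read 1551 and 1374 in pDCs and 0.556 and 1.03 in CD8α cDCs (at least 73-fold, log2 6.19, SE 0.21, adjusted p = 4.57e-09). Il7r, the interleukin-7 receptor chain, read 2113 and 3020 against 17.7 and 23.8 (log2 6.85, SE 0.21, adjusted p = 2.33e-09). Dntt, the terminal transferase of antigen receptor rearrangement, was at 539 and 717 against 5.81 and 0.551 (at least 31.1-fold, log2 4.96, SE 0.2, adjusted p = 1.49e-08). The recombinase genes Rag1 and Rag2 were below 20 on all 4 arrays. Cd79b, a signalling chain of the B cell receptor, was at 479 and 344 in pDCs and 29.8 and 34.2 in CD8α cDCs (log2 3.67, SE 0.19, adjusted p = 1.04e-07), whereas its partner Cd79a was below 20 on every array of the pair. Cd72 (521 and 507 against 20.2 and 5.8, log2 4.68) and the Src-like adaptor gene Sla2 (298 and 303 against 8.51 and 0.546, at least 15-fold) belonged to the same side. The pDC arrays thus carried a part of the B cell receptor pathway and lacked Cd79a, Pou2af1 and Pax5, all below 20 there. On the CD8α cDC side lay Btk, a tyrosine kinase, at 359 and 232 in pDCs and 672 and 599 in CD8α cDCs (log2 -1.13, adjusted p = 0.00401), a call lost without the floor (adjusted p = 0.238).

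Receptors that signal through ITAM or ITIM partners were mostly higher in pDCs, 9 of 14 tested, with 3 higher in CD8α cDCs (median 1.47). In all 85.7% were called, beside 36.7% of all genes. Fcer1g, the common γ chain with an ITAM, had 2678 and 2081 in pDCs and 135 and 162 in CD8α cDCs (log2 4, SE 0.18, adjusted p = 3.87e-08). Tyrobp (DAP12), the adaptor of Siglech, was high in both, with 7833 and 6758 against 2965 and 3366 (log2 1.2, SE 0.59, adjusted p = 0.14). Among inhibitory receptors, Lair1, a collagen receptor, had 1486 and 1615 against 30.1 and 29.7 (log2 5.7, SE 0.29, adjusted p = 8.69e-08). Klra17 (Ly49Q) had 2963 and 3177 against 11.5 and 26.5 (log2 7.06, SE 0.17, adjusted p = 8.17e-10). Sirpa, the CD47 receptor that is commonly used to tell CD11b cDCs from cDC1, had 731 and 660 in pDCs and 30 and 41.8 in CD8α cDCs (log2 4.29, SE 0.27, adjusted p = 4.03e-07). On the CD8α cDC side, Fcgr2b, the inhibitory IgG receptor, had 260 and 213 in pDCs and 944 and 854 in CD8α cDCs (log2 -1.93, SE 0.22, adjusted p = 5.36e-05). That call depends on the probe set, since of its 4 probe sets tested 1 other was not called, the one used when probe sets unique to a transcript were taken first (adjusted p = 0.296).

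Of 11 uptake receptors tested, 5 were higher in pDCs and 3 in CD8α cDCs, and 10 more were below the signal filter. Those called made up 72.7% of the tested members, beside 36.7% of all genes. Clec10a, a galactose-type lectin, was at 2848 and 2250 in pDCs and at 19.8 and 2.78 in CD8α cDCs (at least 127-fold, log2 6.98, SE 0.19, adjusted p = 1.25e-09). The DC-SIGN homologues Cd209d (960 and 818 against 16 and 13) and Cd209a (818 and 570 against 21 and 16.6) went the same way (log2 5.47 and 5.06). Cd163, a scavenger receptor for haemoglobin, was higher in pDCs at low signals, 59.6 and 52.6 against 6.69 and 8.16 (at least 2.8-fold, log2 1.48, SE 0.15, adjusted p = 1.61e-05), as was the endocytic receptor gene Lrp1 (37 and 32.7 against 0.79 and 2.68, log2 0.8, adjusted p = 0.0309), but neither call was stable: that of Lrp1 was lost without any 1 of the 4 arrays (adjusted p = 0.08 to 0.136) and that of Cd163 with a floor of 50 (adjusted p = 0.215). The CD8α cDC side held the scavenger receptor Cd36, at 37.1 and 13.9 in pDCs and 1217 and 1086 in CD8α cDCs (log2 -5.4, SE 0.77, adjusted p = 0.000249). It also held Cd207 (langerin), at 0.728 and 1.83 against 391 and 323 (at least 17.8-fold, log2 -4.15, SE 0.15, adjusted p = 7.98e-09), and Ly75 (DEC-205), at 4.71 and 6.08 against 174 and 218 (at least 9.74-fold, log2 -3.28, SE 0.36, adjusted p = 3.2e-05). Receptors of apoptotic cells such as Axl, Mertk and Timd4 were below the filter in all 6 populations.

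The endosomal Toll-like receptors were distributed in opposite ways. Tlr7, a receptor for single-stranded RNA, was at 693 and 683 in pDCs and at 6.73 and 1.38 in CD8α cDCs (at least 34.4-fold, log2 5.1, SE 0.57, adjusted p = 4.05e-05). Tlr3, a receptor for double-stranded RNA, was at 7.63 and 12 in pDCs and at 1762 and 1727 in CD8α cDCs (at least 87.2-fold, log2 -6.45, SE 0.43, adjusted p = 6.87e-07). Tlr13, a sensor of bacterial ribosomal RNA, lay with Tlr3, at 3.23 and 12.1 against 305 and 372 (at least 16.9-fold, log2 -4.07, SE 0.19, adjusted p = 4e-08). Each of these receptors was thus at background in the population where it was low. The probe set for Tlr9 stayed between 17.9 and 28.9 on the 4 arrays and did not pass the filter in any population, so the array says nothing about this DNA receptor.

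The shared machinery behind these receptors differed less. Slc15a4, a lysosomal transporter needed for endosomal Toll-like receptor responses of pDCs, read 1238 and 1094 against 205 and 218 (log2 2.46, SE 0.37, adjusted p = 0.000353). Unc93b1, which carries the receptors to endosomes (1358 and 788 against 874 and 844, adjusted p = 0.589), the adaptor Myd88 (677 and 573 against 659 and 683, adjusted p = 0.749) and Irf3 (785 and 651 against 755 and 783, adjusted p = 0.674) were not called. Irf5, a factor of inflammatory cytokine genes, was at 485 and 314 in pDCs and 1086 and 1016 in CD8α cDCs (log2 -1.43, SE 0.24, adjusted p = 0.000781). Over the whole list of 15, 2 members were higher in pDCs and 4 in CD8α cDCs (40% called, near the share of all genes). Among 10 cytosolic sensors 30% were called, a share below that of all genes. Sting1, the adaptor of DNA sensing, was at 1020 and 1046 in pDCs and 316 and 363 in CD8α cDCs (log2 1.61, SE 0.22, adjusted p = 0.000189). The 7 sensors not called included the RNA sensor Ifih1 (528 and 451 against 447 and 588, adjusted p = 0.93). With hybridisation time as a block the call of Irf5 was lost (adjusted p = 0.0756). For the surface Toll-like receptor genes the share called was 33.3%, near that of all genes. Of 9 surface Toll-like receptor genes, 2 were higher in pDCs, 1 was higher in CD8α cDCs and 6 were not called, and each of these 3 calls was lost when an array of the pair was left out.

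Interferon-stimulated genes as a list had a share of calls below that of all genes, 5 of 25 higher in pDCs and 1 higher in CD8α cDCs (median 0.67). Oasl2, of the oligoadenylate synthetase family, was at 321 and 275 in pDCs and below 16 in CD8α cDCs (13.3 and 15.6, at least 14.9-fold, log2 3.89, SE 0.62, adjusted p = 0.000553). Ifi27l2a had 1870 and 1632 against 155 and 250 (log2 3.15, SE 0.64, adjusted p = 0.00271) and Stat2, a subunit of the interferon-activated factor ISGF3, 229 and 240 against 49.2 and 53 (log2 2.2, SE 0.41, adjusted p = 0.0015). Many of the other members were higher on both pDC arrays without passing, such as Rsad2 (305 and 262 against 83 and 66.7, SE 0.95, adjusted p = 0.142). Mx1 was higher on both CD8α cDC arrays (402 and 343 against 864 and 651, adjusted p = 0.399). The number of members higher in pDCs was 3 without either pDC array, 8 in the fit to the 4 arrays and 11 without the B cell arrays.

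The receptors of the interferons themselves were divided between the populations. Ifnar2, a chain of the type I interferon receptor, was at 2446 and 1921 in pDCs and 577 and 548 in CD8α cDCs (log2 1.95, SE 0.21, adjusted p = 2.75e-05), and its partner Ifnar1 at 489 and 384 against 143 and 204 (log2 1.34, SE 0.26, adjusted p = 0.00205). Ifngr1, the ligand-binding chain of the interferon-γ receptor, was at 127 and 163 in pDCs and 2300 and 2152 in CD8α cDCs (log2 -3.95, SE 0.28, adjusted p = 1.24e-06). Both chains for type I interferon were thus higher in pDCs and the chain for interferon-γ was higher in CD8α cDCs. Ifngr2, the other chain of that receptor, was not called (73.1 and 54.2 against 62 and 151, adjusted p = 0.306). Socs3, an inhibitor of cytokine signalling, read 393 and 558 against 34.2 and 58.5 (log2 3.39, SE 0.46, adjusted p = 0.000166), and this call was lost with hybridisation time as a block (adjusted p = 0.0536).

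The class II genes were high in both populations. H2-Aa had 8534 and 9373 in pDCs and 12944 and 14336 in CD8α cDCs (log2 -0.61, SE 0.47, adjusted p = 0.353). Cd74, the invariant chain, had 7519 and 6790 against 9319 and 10930 (log2 -0.5, SE 0.23, adjusted p = 0.124), and H2-Ab1 had 6570 and 6891 against 10085 and 11603 (adjusted p = 0.171), though its 2 other probe sets were called higher in CD8α cDCs. H2-Eb1, the class II β chain of the other isotype, was called higher in CD8α cDCs, at 5667 and 6436 against 9626 and 10020 (log2 -0.7, SE 0.22, adjusted p = 0.0256), but not without any 1 of the 4 arrays (adjusted p = 0.0578 to 0.117). These chains were all higher on both CD8α cDC arrays, by less than 2-fold. The regulators differed more: Ciita, the master activator of class II genes, had 115 and 100 in pDCs and 492 and 384 in CD8α cDCs (log2 -2.02, SE 0.22, adjusted p = 3.94e-05). Marchf1, a ubiquitin ligase that removes class II molecules from the surface, had 214 and 319 against 1073 and 1212 (log2 -2.12, SE 0.43, adjusted p = 0.00262), and H2-Ob, a chain of the peptide-editing inhibitor H2-O, had 177 and 345 against 1358 and 1493 (log2 -2.53, SE 0.43, adjusted p = 0.00081). In all 5 of 15 list members were higher in CD8α cDCs and none in pDCs (33.3% called, near the share of all genes), and this count was 3 without CD8α cDC replicate 2 or pDC replicate 2 and 10 in a fit to the 6 dendritic cell arrays. Without the floor Ciita (adjusted p = 0.165) and Marchf1 (adjusted p = 0.254) were not called, although their signals on the 4 arrays lay above it. With hybridisation time as a block neither H2-Ob (adjusted p = 0.0625) nor Marchf1 (adjusted p = 0.0511) was called.

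Of the class I pathway genes tested, 43.5% were called, beside 36.7% of all genes tested. Within this pathway the heavy chains and B2m did not pass on the probe sets used. H2-K1 had 8838 and 8874 in pDCs and 8020 and 8371 in CD8α cDCs (adjusted p = 0.619), and B2m 8163 and 7297 against 7577 and 8642 (adjusted p = 0.831). Of the other H2-K1 probe sets tested, 2 were called higher in pDCs and 1 was not called. For the heavy chain gene H2-D1, 2 others were called higher in pDCs and 2 were not called. The peptide transporter gene Tap2 was higher in CD8α cDCs, at 526 and 394 against 1181 and 1196 (log2 -1.38, SE 0.22, adjusted p = 0.000614), as was Psmb9 of the immunoproteasome, at 3128 and 2500 against 5942 and 6668 (log2 -1.17, SE 0.23, adjusted p = 0.00246). Its fellow immunoproteasome subunits Psmb8 (adjusted p = 0.0831) and Psmb10 (adjusted p = 0.817) did not pass. The NADPH oxidase, which restrains acidification of phagosomes, was unevenly shared. Its catalytic chain Cybb was at 3455 and 4761 in pDCs and at 42.5 and 60.2 in CD8α cDCs (log2 6.33, SE 0.38, adjusted p = 3.13e-07), and its activator Rac2 at 3495 and 2318 against 711 and 706 (log2 2.01, SE 0.41, adjusted p = 0.00299). Ncf4, a cytosolic subunit, showed the reverse, at 412 and 337 against 1357 and 1559 (log2 -1.97, SE 0.38, adjusted p = 0.002), and Cyba, the partner chain, was high in both (5086 and 3423 against 3987 and 5006, adjusted p = 0.789). Over the list of 23, 7 members were higher in CD8α cDCs (4 without CD8α cDC replicate 2 or pDC replicate 2), 3 were higher in pDCs and 13 were not called.

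The ligands of costimulation gave some of the widest gaps, and 66.7% of those tested were called, beside 36.7% of all genes. Cd86, a ligand of CD28, was at 43.8 and 53.1 in pDCs and 1955 and 1963 in CD8α cDCs (log2 -5.34, SE 0.54, adjusted p = 1.98e-05). Cd83, a marker of activated dendritic cells, was at 149 and 119 against 5291 and 4288 (log2 -5.16, SE 0.24, adjusted p = 4.76e-08). Havcr2 (Tim-3), an inhibitory receptor, was at 47.1 and 59.6 against 2700 and 2405 (log2 -5.59, SE 0.16, adjusted p = 1.43e-09). In each case both pDC arrays were low and above the floor. Cd80, the other CD28 ligand, was below the floor in pDCs (1.38 and 1.6) and at 115 and 96.9 in CD8α cDCs (at least 5.27-fold, log2 -2.4, SE 0.15, adjusted p = 4.03e-07). The inhibitory ligand Cd274 (PD-L1) was low in both (91.6 and 94.5 against 95.9 and 74.7, adjusted p = 0.756). Cd200, an inhibitory ligand, was at 282 and 294 in pDCs and 89.6 and 76.7 in CD8α cDCs (log2 1.8, SE 0.37, adjusted p = 0.00293), but not without the floor (adjusted p = 0.0617). Of 12 ligands tested, 5 were higher in CD8α cDCs and 3 in pDCs, and the latter count fell to 1 without CD8α cDC replicate 2.

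**Figure D4:**
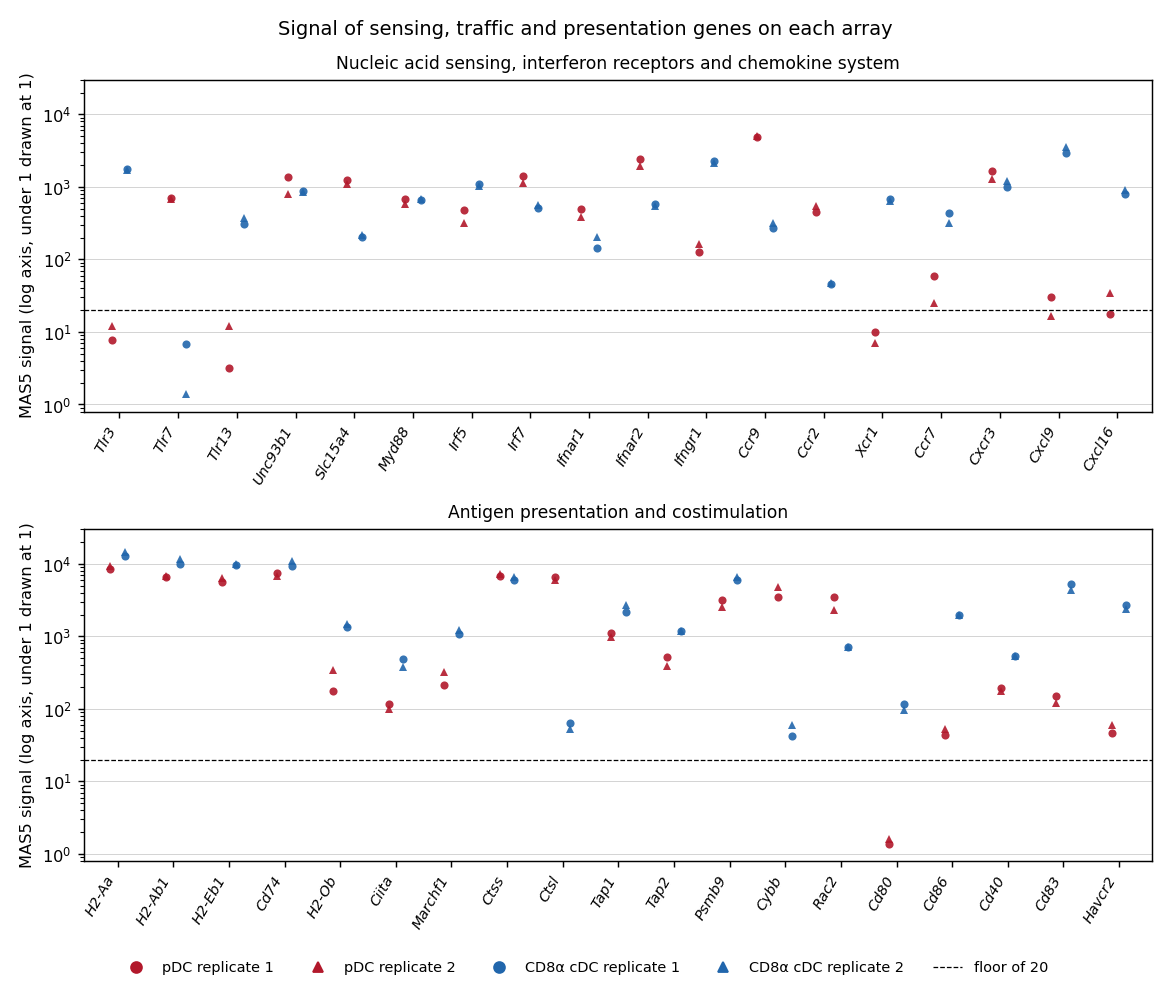
Signal (log axis) on each of the 4 arrays, pDCs in red and CD8α cDCs in blue, replicate 1 as circles and replicate 2 as triangles, with the floor of 20 as a dashed line. Tlr3 and Tlr7 are mirror images, the class II chains and Ctss are high on all 4 arrays, and Cd86, Cd83 and Havcr2 are far higher in CD8α cDCs while Cybb and Ctsl are far higher in pDCs.

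The lysosomal genes were higher in pDCs in 14 of 31 cases and higher in CD8α cDCs in 5 (median 0.62). In all 61.3% were called, beside 36.7% of all genes. Ctsl, the cathepsin L gene, stood out at 6581 and 5905 in pDCs and 63.8 and 53.4 in CD8α cDCs (log2 6.74, SE 0.21, adjusted p = 2.69e-09). Cathepsin S (Ctss), the main protease of the invariant chain in dendritic cells, was high in both and not called (6873 and 7202 against 5948 and 6572, adjusted p = 0.552). Cathepsin D (Ctsd) had 627 and 450 against 94.2 and 87.1 (log2 2.55, SE 0.27, adjusted p = 3.01e-05), and the protective protein gene Ctsa had 2644 and 2374 against 566 and 650 (log2 2.05, SE 0.33, adjusted p = 0.000578). Npc1, which exports cholesterol from lysosomes, had 690 and 725 against 83.6 and 73.5 (log2 3.17, SE 0.2, adjusted p = 4.69e-07), whereas its partner Npc2 did not pass (5413 and 5382 against 4773 and 4745, adjusted p = 0.464). Proteases and membrane proteins thus made up most of the pDC side. The CD8α cDC side consisted of hydrolases of sugars, lipids and phosphates: Gusb, β-glucuronidase, had 677 and 572 in pDCs and 4519 and 4690 in CD8α cDCs (log2 -2.89, SE 0.23, adjusted p = 2.85e-06), and Fuca1 (log2 -2.27), Acp2 (-2.26), Lipa (-2.18) and Man2b1 (-1.3) were the other 4.

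The genes of traffic through the spleen differed in their receptors and in their ligands. Of 12 chemokine receptors, 5 were higher in pDCs and 2 in CD8α cDCs (58.3% called, beside 36.7% of all genes). Besides Ccr9, the pDC side held Ccr2, the receptor of CCL2, at 453 and 537 against 45.1 and 47.9 (log2 3.41, SE 0.2, adjusted p = 2.51e-07), Cx3cr1 at 133 and 173 against 3.7 and 31.5 (log2 2.59, adjusted p = 5.87e-05), Ccr6 (log2 2.26, adjusted p = 0.00011) and Ccr1 (log2 2.07, adjusted p = 0.00332). Besides Xcr1, the CD8α cDC side held Ccr7, which guides dendritic cells to T cell zones, at 59.1 and 25 against 442 and 316 (log2 -3.28, SE 0.35, adjusted p = 3.1e-05). With hybridisation time as a block Cx3cr1 (adjusted p = 0.0571), Ccr1 (adjusted p = 0.0537) and Ccr7 (adjusted p = 0.076) were not called, and without the floor Ccr6 (adjusted p = 0.0903) and Ccr1 (adjusted p = 0.204) were not. Cxcr3 was high on all 4 arrays (1677 and 1270 against 1010 and 1198, adjusted p = 0.529).

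Chemokine ligands were mostly higher in CD8α cDCs, 6 of 10, with a median of -2.08 (70% called, beside 36.7% of all genes). Cxcl9, a ligand of CXCR3 induced by interferon-γ, had the largest difference of all genes on this side, at 30.6 and 16.7 in pDCs and 2965 and 3500 in CD8α cDCs (log2 -7.02, SE 0.21, adjusted p = 2.13e-09). Cxcl16, the ligand of CXCR6, was at 17.8 and 34.7 against 803 and 916 (log2 -5.02, SE 0.26, adjusted p = 8.72e-08), and Ccl22, a ligand of CCR4, at 4.84 and 5.25 against 176 and 208 (at least 9.56-fold, log2 -3.26, SE 0.29, adjusted p = 6.92e-06). Ccl4 alone was higher in pDCs, at 1354 and 893 against 198 and 223 (log2 2.39, SE 0.39, adjusted p = 0.000704), while its neighbour Ccl3 did not pass (477 and 369 against 181 and 191, adjusted p = 0.0875). The number on the CD8α cDC side fell to 3 with hybridisation time as a block.

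Among 13 cytokines 5 were higher in CD8α cDCs and 2 in pDCs (53.8% called, beside 36.7% of all genes). Il1b, interleukin-1β, was at 99.7 and 75.1 in pDCs and 1574 and 1482 in CD8α cDCs (log2 -4.14, SE 0.45, adjusted p = 3.3e-05). Il15, which sustains NK and memory CD8 T cells, was at 0.67 and 7.49 against 169 and 146 (at least 7.84-fold, log2 -2.97, SE 0.23, adjusted p = 2.81e-06), and Il12b, the p40 chain of interleukin-12, at 21.8 and 11.8 against 112 and 87.6 (log2 -2.25, SE 0.16, adjusted p = 1.47e-06), although not without the floor (adjusted p = 0.119). Tnf was present on all 4 arrays (281 and 211 against 315 and 255, adjusted p = 0.766), and Il6 and Il10 were below the filter. The count on the CD8α cDC side fell to 3 without CD8α cDC replicate 1, CD8α cDC replicate 2 or pDC replicate 2. Of 26 cytokine receptors, 7 were higher in pDCs and 4 in CD8α cDCs, and the 42.3% called is near the share of all genes. Lifr, the receptor of leukaemia inhibitory factor, was at 1554 and 1639 in pDCs and 8.66 and 10.6 in CD8α cDCs (at least 79.8-fold, log2 6.32, SE 0.18, adjusted p = 1.25e-09). Csf2rb2, a mouse β chain for interleukin-3, was at 2659 and 2778 against 327 and 314 (log2 3.08, SE 0.19, adjusted p = 3.36e-07), and Csf2ra, the specific chain of the GM-CSF receptor, at 233 and 186 against 949 and 807 (log2 -2.07, SE 0.39, adjusted p = 0.00177). Flt3, the receptor of the growth factor shared by all dendritic cells, did not pass (996 and 1007 against 1724 and 1702, log2 -0.77, SE 0.31, adjusted p = 0.0786).

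Replication and mitosis genes all differed in the same direction: the 32 tested were each higher in CD8α cDCs, with a median log2 difference of -2.49, where 18.4% of all genes were called in that direction. Ube2c, the ubiquitin-conjugating enzyme of the anaphase-promoting complex, was at 62 and 37.1 in pDCs and 734 and 884 in CD8α cDCs (log2 -4.07, SE 0.37, adjusted p = 8.83e-06). Cdc20, an activator of the same complex, was at 92.3 and 75.8 against 822 and 990 (log2 -3.43, SE 0.18, adjusted p = 1.23e-07). Mki67, the Ki-67 proliferation antigen, was at 292 and 304 against 1927 and 1767 (log2 -2.63, SE 0.37, adjusted p = 0.000208). The mitotic genes were low in pDCs and mostly above the floor, and no array of a population reached the other population's range. Among replication genes, Mcm5 of the replicative helicase was at 313 and 323 against 1657 and 1631 (log2 -2.37, SE 0.16, adjusted p = 8.32e-07), and Rrm2 of ribonucleotide reductase at 102 and 83.2 against 736 and 1021 (log2 -3.24, SE 0.43, adjusted p = 0.000146). Pcna, the sliding clamp that also serves in repair, had the smallest difference of the list, at 1730 and 1992 against 3684 and 3782 (log2 -1.01, SE 0.2, adjusted p = 0.00229). Without 1 of the 4 arrays, 31 or 32 members were called.

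The promoters of Cdc20 and Ube2c are shown as examples of these genes, with capitals at CCAAT or its complement ATTGG (the CCAAT box, bound by NF-Y) and at TTTGAA or TTTAAA or their complements (the cell cycle homology region).
Cdc20 promoter, chr4:118437294-118437593, minus strand: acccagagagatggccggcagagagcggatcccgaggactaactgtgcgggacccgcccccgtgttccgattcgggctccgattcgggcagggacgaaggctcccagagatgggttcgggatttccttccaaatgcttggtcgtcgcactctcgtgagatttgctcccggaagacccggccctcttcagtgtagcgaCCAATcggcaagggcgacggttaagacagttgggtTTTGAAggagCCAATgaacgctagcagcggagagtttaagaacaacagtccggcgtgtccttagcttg
Ube2c promoter, chr2:164769679-164769978, plus strand: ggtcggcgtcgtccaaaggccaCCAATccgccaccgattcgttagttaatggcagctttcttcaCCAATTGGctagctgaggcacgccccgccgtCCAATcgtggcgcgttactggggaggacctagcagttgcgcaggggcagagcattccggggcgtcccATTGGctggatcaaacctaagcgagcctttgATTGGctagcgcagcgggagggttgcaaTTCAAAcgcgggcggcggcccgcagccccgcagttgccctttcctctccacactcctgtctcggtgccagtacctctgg
The Cdc20 window holds 2 CCAAT boxes and 1 cell cycle homology region and the Ube2c window 6 and 1. Matches on opposite strands may overlap, as 2 of the 6 in Ube2c do. Of 29 promoters of 27 members of the list, 86.2% hold a CCAAT box and 65.5% a cell cycle homology region, beside 37.4% and 27.6% of all promoters. Both motifs occur together in 55.2% of the list and in 10.7% of all promoters. The lists were not matched for base composition, and a motif is a feature of the sequence and not a measured site.

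Sterol synthesis went in the opposite direction. Of 27 genes of cholesterol and lipid synthesis tested, 17 were higher in pDCs, 2 were higher in CD8α cDCs and 8 were not called (median 1.34). The share called was 70.4%, beside 36.7% of all genes. The number higher in pDCs fell to 12 with hybridisation time as a block. Along the pathway, Idi1, isopentenyl diphosphate isomerase, was at 1121 and 1098 in pDCs and 254 and 284 in CD8α cDCs (log2 2.05, SE 0.24, adjusted p = 6.13e-05). Fdft1, squalene synthase, was at 867 and 721 against 299 and 298 (log2 1.4, SE 0.24, adjusted p = 0.00101), and Msmo1, a C4-methylsterol oxidase, at 1156 and 740 against 216 and 222 (log2 2.08, SE 0.26, adjusted p = 0.000103). Dhcr7, which makes cholesterol in the last step, was at 347 and 277 against 51 and 52 (log2 2.59, SE 0.3, adjusted p = 4.92e-05). Enzymes from the early to the final steps were therefore higher on both pDC arrays. Hmgcs1, at the head of the pathway, was at 3739 and 3465 against 1166 and 1676 (log2 1.36, SE 0.3, adjusted p = 0.0046), but missed the threshold without CD8α cDC replicate 1 (adjusted p = 0.0515). Mvk, Pmvk, Nsdhl and Ebp of the same pathway were not called (log2 0.4, 0.33, 0.17 and -0.01). Insig1, a sterol-regulated inhibitor of the pathway's activation, was at 415 and 366 against 77.1 and 149 (log2 1.86, SE 0.33, adjusted p = 0.00119) and was not called in the fit to the 4 arrays (adjusted p = 0.0518).

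Fatty acid genes were not uniform with the sterol genes. The desaturase genes Fads3 (609 and 504 against 1.87 and 14.2, at least 27.7-fold) and Fads2 (398 and 320 against 29.9 and 38.9) were higher in pDCs (log2 4.79 and 3.39). Fasn, fatty acid synthase, was higher in CD8α cDCs, at 255 and 201 against 582 and 611 (log2 -1.4, SE 0.22, adjusted p = 0.00048), as was Scd1, at 1.39 and 0.806 against 69.6 and 49.6 (at least 2.94-fold, log2 -1.55, SE 0.29, adjusted p = 0.00148). Srebf1 was not called (510 and 442 against 316 and 374, adjusted p = 0.194), and the call of Srebf2 (log2 0.5, adjusted p = 0.0365) was lost without any of the 4 arrays (adjusted p = 0.0518 to 0.182). With 1 of the 4 arrays left out, 14 to 16 members of the whole list were called higher in pDCs. Of 26 promoters of 21 members, 80.8% hold a CCAAT box, 15.4% a cell cycle homology region and 26.9% CACCTG. The shares of all promoters are 37.4%, 27.6% and 20.2%. The replication and mitosis list, on the CD8α cDC side, had a CCAAT box in 86.2%, so a high share of this motif is common to both lists.

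**Figure D5:**
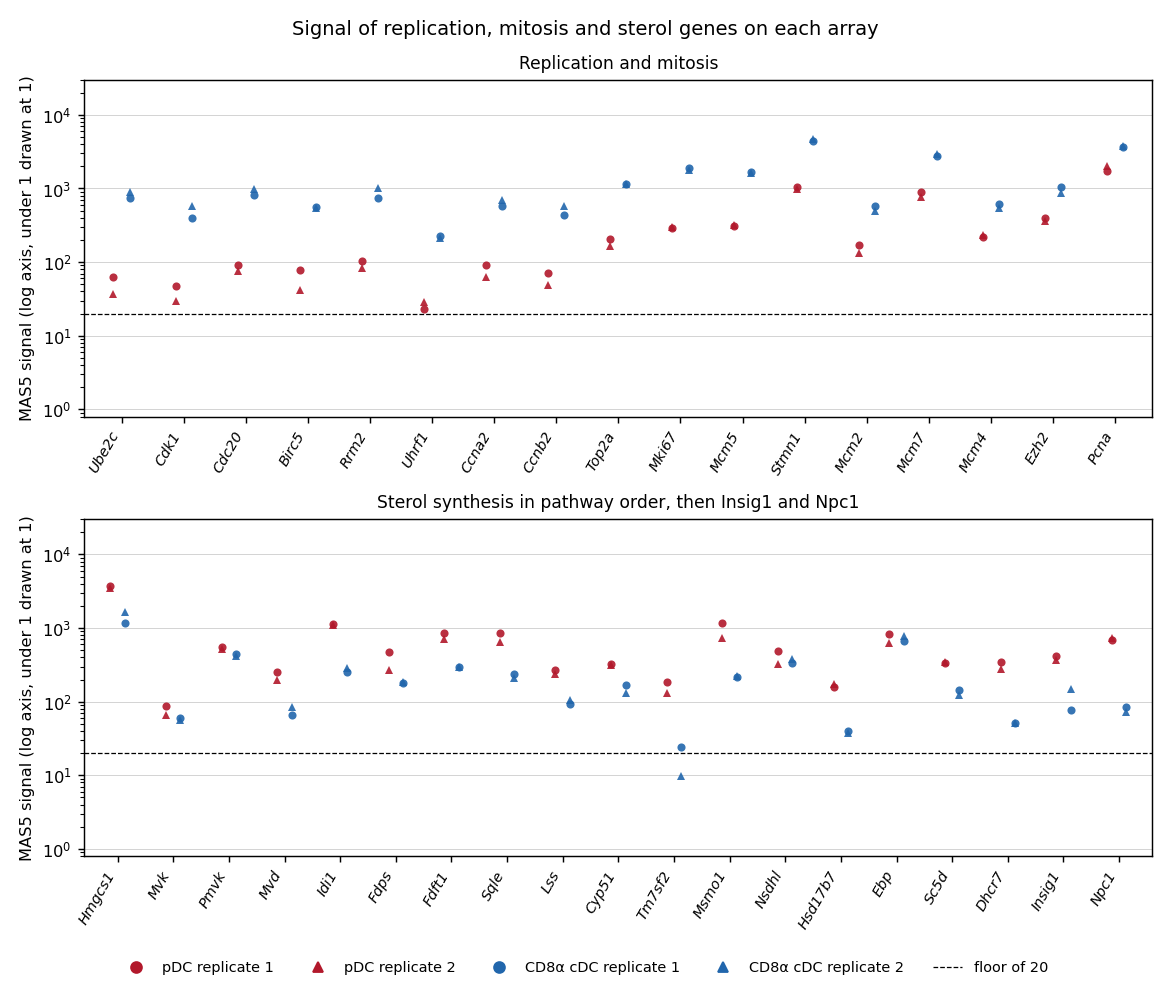
Signal (log axis) of replication and mitosis genes in the upper panel and of sterol genes in pathway order in the lower panel on each of the 4 arrays, pDCs in red and CD8α cDCs in blue, replicate 1 as circles and replicate 2 as triangles, with the floor of 20 as a dashed line. The blue symbols lie above the red ones for every gene of the upper panel, and the red ones lie above for most genes of the lower panel except Nsdhl and Ebp, where the arrays overlap.

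Glycolytic genes were higher in CD8α cDCs in 10 of 17 cases and in pDCs in 3 (median -0.97), and the former count fell to 6 without CD8α cDC replicate 2. Of the glycolysis list 76.5% were called, beside 36.7% of all genes. The isoforms of the entry steps did not all differ in the same direction. Hk3, a hexokinase of myeloid cells, was at 10.8 and 1.78 in pDCs and 697 and 720 in CD8α cDCs (at least 35.4-fold, log2 -5.15, SE 0.17, adjusted p = 4.57e-09), and Hk2 at 181 and 164 against 586 and 597 (log2 -1.78, SE 0.21, adjusted p = 7.28e-05). Hk1 was at 232 and 188 in pDCs and 106 and 90.6 in CD8α cDCs (log2 1.09, SE 0.19, adjusted p = 0.00104), a call lost with hybridisation time as a block (adjusted p = 0.0759). The other Hk1 probe set tested was not called. The glucose transporter gene Slc2a3 was at 1550 and 1480 in pDCs and 62 and 96.8 in CD8α cDCs (log2 4.29, SE 0.39, adjusted p = 8.83e-06), whereas Slc2a1 was at about the same signal in both (145 and 150 against 142 and 151, adjusted p = 1). Among the later enzymes, Tpi1 was at 219 and 167 in pDCs and 1068 and 1127 in CD8α cDCs (log2 -2.52, SE 0.29, adjusted p = 4.76e-05), and Pgk1 at 1094 and 1278 against 3470 and 3116 (log2 -1.48, SE 0.23, adjusted p = 0.000457).

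Actin and motility genes were higher in CD8α cDCs in 25 of 42 cases and in pDCs in 3 (median -0.76). In all 66.7% were called, beside 36.7% of all genes. Dbn1, the actin-binding protein drebrin, was at 1.46 and 20.4 in pDCs and 468 and 322 in CD8α cDCs (log2 -4.26, SE 0.19, adjusted p = 2.79e-08). Lima1, which bundles actin filaments, was at 21.4 and 2.58 against 370 and 329 (log2 -4.07, SE 0.15, adjusted p = 6.73e-09), and Tiam1, an activator of Rac1, at 23.2 and 34.4 against 238 and 225 (log2 -3.03, SE 0.2, adjusted p = 7.52e-07). Rac1 itself was at 1289 and 855 in pDCs and 2244 and 2697 in CD8α cDCs (log2 -1.23, SE 0.23, adjusted p = 0.00172). On these probe sets Rac1 and Rac2 differed in opposite directions, but the other Rac1 probe set tested was not called. In the fit to the 4 arrays Rac1 was not called (adjusted p = 0.055). Capg, which caps actin filaments, was an exception to the list, at 760 and 561 in pDCs and 1.64 and 3.89 in CD8α cDCs (at least 32.6-fold, log2 5.03, SE 0.26, adjusted p = 9.51e-08). This rests on 1 of its 2 probe sets tested, as the other was not called. Dock2 and Dock8, the other members on that side, each had 2 further probe sets that were not called. The abundant Actb did not pass (10645 and 10142 against 12052 and 13596, adjusted p = 0.175). The count on the CD8α cDC side ranged from 17 to 22 without 1 of the 4 arrays and was 15 with hybridisation time as a block.

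Of 25 immediate-early and heat shock genes, which respond to handling as well as to stimulation, 9 were higher in CD8α cDCs and none in pDCs (36% called, median -0.66), a share near that of all genes. No heat shock gene was among the 9. Egr3 and Egr2, zinc finger factors induced by receptor signals, were at 23.1 and 19 against 691 and 728 and at 18.4 and 51.5 against 796 and 1006 (log2 -5.04 and -4.8). Nr4a2, an orphan nuclear receptor, was at 19.7 and 25.8 against 699 and 284 (log2 -4.29, SE 0.57, adjusted p = 0.00015), and Atf3, a stress-induced factor, at 133 and 199 against 2703 and 1076 (log2 -3.39, SE 0.63, adjusted p = 0.0016). The CD8α cDC arrays differed from each other by over 2-fold for both of these genes. Fos was high on all 4 arrays (5914 and 6406 against 8338 and 7466, log2 -0.36, SE 1.3, adjusted p = 0.879), as were Jun (4809 and 5797 against 4469 and 3379, adjusted p = 0.849) and the heat shock genes Hspa1a (3922 and 3968 against 6824 and 4888, adjusted p = 0.821) and Hspa1b (adjusted p = 0.964). The part of digestion and sorting in these levels was not tested.

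Of 39 genes of the endoplasmic reticulum and secretory pathway, 8 were higher in pDCs, 1 was higher in CD8α cDCs and 30 were not called (median 0.18), a share of calls below that of all genes. Nucb2, a calcium-binding protein of the Golgi, was at 2840 and 2752 in pDCs and 505 and 461 in CD8α cDCs (log2 2.53, SE 0.2, adjusted p = 2.87e-06). Sec24d, a coat protein of vesicles leaving the endoplasmic reticulum, was at 1110 and 893 against 294 and 321 (log2 1.69, SE 0.24, adjusted p = 0.000265), and Tmed3, a cargo receptor, at 2133 and 1905 against 888 and 987 (log2 1.11, SE 0.24, adjusted p = 0.00422). Xbp1, the factor that expands the secretory apparatus, was at 3165 and 3244 in pDCs and 1752 and 1735 in CD8α cDCs and did not pass (log2 0.88, SE 0.44, adjusted p = 0.144). The chaperone Hspa5 (7207 and 9106 against 9843 and 9317, adjusted p = 0.516) did not pass either. Mzb1, a chaperone of immunoglobulin assembly counted with the pDC markers, was at 1709 and 1216 against 2.08 and 10.1 (at least 72.1-fold, log2 6.17, SE 0.33, adjusted p = 1.32e-07). Without 1 of the 4 arrays, 4 or 5 members were higher in pDCs. Of 11 BCL2 family genes, 3 were higher in CD8α cDCs and 1 in pDCs (36.4% called, as among all genes). The latter was Bcl2l2 (BCL-W), a survival factor, at 127 and 163 against 62.4 and 54.2 (log2 1.31, SE 0.27, adjusted p = 0.00342), and the other 3 all lost their calls when pDC replicate 2 was left out. Bcl2 (70.3 and 61.7 against 47 and 60.6, adjusted p = 0.627) and Mcl1 (2274 and 3010 against 2939 and 3111, adjusted p = 0.446) were not called.

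Markers of other leukocytes were examined because a sort may carry cells of another type along. On the pDC arrays no B cell marker reached 50 on both arrays, and their summed signal was 93.9 and 97.8. On the CD8α cDC arrays it was 475 and 395, of which Ms4a1 (CD20) made up 339 and 287 (against 6.92 and 13 in pDCs, log2 -3.96, SE 0.43, adjusted p = 3.61e-05), and Bank1 was at 81.1 and 64.2. Pax5, Ebf1, Cd79a, Cr2 and Fcer2a were below 20 on all 4 arrays. T cell markers summed to 217 and 213 in pDCs and 79.9 and 89.1 in CD8α cDCs, and none of 10 reached 50 on both arrays of a population. Cd28 (48.9 and 105 in pDCs, log2 1.84), Thy1 (57.4 and 43.4, log2 1.32) and Lat (35.3 and 28.3, log2 0.66) were called higher in pDCs, the last a call lost without any of the 4 arrays (adjusted p = 0.0575 to 0.206). The NK cell sum was 2657 and 2882 in pDCs and 442 and 534 in CD8α cDCs. Nearly all of the pDC sum came from Klrd1 (CD94), at 2561 and 2746 against 149 and 282 (log2 3.69, SE 0.48, adjusted p = 0.000133). The CD8α cDC sum came from Klrd1 and from Klrk1 (NKG2D), which was higher there, at 46.2 and 36.1 against 261 and 181 (log2 -2.41, SE 0.39, adjusted p = 0.000571), a call lost with hybridisation time as a block (adjusted p = 0.0528). The NK cell genes Ncr1, Prf1, Tbx21, Eomes and Il2rb were below 20 on all 4 arrays. Neutrophil markers summed to 98.4 and 88.7 against 119 and 128 over 9 genes, and red cell and platelet markers to 70.5 and 72.5 against 133 and 88 over 8 genes, none of them at 50 on both arrays.

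Macrophage markers summed to 1104 and 1131 in pDCs and 1800 and 1856 in CD8α cDCs, and 5 of 11 tested were higher in CD8α cDCs (3 without any 1 of the 4 arrays, 0 without the floor) and 2 in pDCs. Lyz2, lysozyme, contributed most on the CD8α cDC side, at 181 and 89.4 against 1029 and 1045 (log2 -3.03, SE 0.75, adjusted p = 0.00887), with its call lost without CD8α cDC replicate 1, CD8α cDC replicate 2 or pDC replicate 2 (adjusted p = 0.0505 to 0.0961). The other members called higher in CD8α cDCs were Adgre1, Vcam1, Spic and Hmox1. The complement genes C1qa and C1qc and the scavenger receptor gene Marco were below 20 on all 4 arrays, and C1qb was at 24.9 or less. Plasma cell markers summed to 2276 and 1865 in pDCs and 104 and 144 in CD8α cDCs, mainly through Mzb1 and Irf4. Of 7 measured, 4 were at 50 or more on both pDC arrays. Sdc1 was also called higher in pDCs, though its other probe set tested was not called. Jchain read 94.7 and 111 in pDCs and 10.5 and 14.1 in CD8α cDCs and was not called (adjusted p = 0.238 by limma). Prdm1 and Tnfrsf17 were below 20 throughout. CD11b cDC markers summed to 3587 and 3079 in pDCs and 269 and 524 in CD8α cDCs. These came from Cd4, at 1526 and 1287 against 12 and 5.85 (at least 70.1-fold, log2 6.13, SE 0.15, adjusted p = 8.17e-10), and from Cd209a, Sirpa and S100a4. Itgam itself, the CD11b chain, was below 20 on all 4 arrays. The share of any of these cells in the sorts was not tested.

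Among the remaining genes with the largest differences in pDCs were D13Ertd608e, a gene without a known role, at 7504 and 7267 against 13.5 and 2.97 (at least 369-fold, log2 8.53, SE 0.22, adjusted p = 1.2e-09), and Atp1b1, a sodium pump chain counted with the pDC markers, at 3430 and 4093 against 6.28 and 9.88 (at least 187-fold). Pltp, the phospholipid transfer protein, was at 3652 and 4219 against 13.2 and 19.6 (at least 196-fold, log2 7.62, SE 0.33, adjusted p = 2.15e-08). The organic anion transporter gene Slco4a1 (2480 and 2062 against 10.6 and 18.3, at least 113-fold) and Upb1, β-ureidopropionase of pyrimidine breakdown (2771 and 2273 against 23.1 and 8.09), were in the same range. All 5 were near or below the floor on both CD8α cDC arrays.

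In CD8α cDCs the corresponding genes included Treml4, a receptor that binds dead cells, at 29.9 and 9.22 in pDCs and 2911 and 3247 in CD8α cDCs (log2 -6.97, SE 0.19, adjusted p = 1.25e-09). The tetraspanin genes Cd81 and Cd9 were at 20.4 and 23.4 against 2156 and 2399 and at 18.7 and 31.6 against 1178 and 1187 (log2 -6.7 and -5.56). Tgfbi, an extracellular matrix protein, was at 65.3 and 32.9 against 3372 and 3310 (log2 -6.17, SE 0.25, adjusted p = 1.62e-08), and Rasgrp3, an activator of Ras, at 21.5 and 34.9 against 2023 and 2041 (log2 -6.21, SE 0.22, adjusted p = 6.25e-09). Adam8, a metalloprotease (log2 -6.41), Tbc1d9 (-5.94), Cbr3, a carbonyl reductase (-5.73), and Fgl2, a fibrinogen-like protein (-5.58), completed the group. Most of these genes lay close to the floor on the pDC arrays, so that the size of the difference depends on it. At the other extreme, Eef1a1, Tpt1 and Rps3a1, of protein synthesis, were with Actb and Irf8 the highest genes of both populations that were not called, at 9361 to 12082 on the 4 arrays.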

How the data were processed

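Affymetrix Mouse Genome 430 2.0 arrays had been summarised by the authors with the MAS5 algorithm, and the deposited values are linear signal intensities per probe set, each array scaled to a target intensity of 100 (trimmed mean, 2% at each end). Software versions and background settings are not given in the sources used here. Array records deposited with the series (unit other) gave chip lot, hybridisation time, scan day and RNA amount.

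The platform annotation named a single gene for 34958 of the 45101 probe sets, more than 1 gene for 932 and none for 9211. Symbols were updated through gene IDs to RefSeq GRCm38.p6, which matched 34754. A gene was represented by its probe set with the highest mean over all arrays, and 9391 genes with a signal of at least 50 in every replicate of at least 1 population were tested. Signals were floored at 20, log2-transformed and fitted with limma 3.58.1 (R 4.3.3; lmFit, eBayes) in 1 model of 6 populations and 13 arrays, with Benjamini-Hochberg adjustment at 0.05. Tables and figures were made with Python 3.11.15, pandas 2.3.3 and matplotlib 3.10.9. The scripts were tested on simulated data.

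The comparison, the gene lists and their members were chosen with earlier results of these data known. The text names the 15 called genes with the largest differences each way, up to 8 members of each list (called ones by size, then others by signal), the sort antigens, markers of other cells at a signal of at least 50, and the 5 highest genes not called; other names were chosen after their values were seen. Alternatives covered normalisation, floor, filter, arrays and populations in the fit, probe set choice, batch terms and leaving out each array. Same-numbered pDC and CD8α cDC arrays did not deviate together (correlation -0.159) and were not treated as pairs, although both populations were sorted in the same independent experiments. Columns without a sample numbered 0.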

Additional observations from a re-analysis of the deposited data

How the results depend on the processing

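The number of genes called between pDCs and CD8α cDCs was 3446. Other normalisations, floors, filters, probe set choices, scan day as a block and other choices of populations gave between 2926 and 4044. A test against a fold of 2 (limma's treat) called 1049 genes, 512 higher in pDCs and 537 higher in CD8α cDCs. When every probe set that passed the filter was tested, 2635 were higher in pDCs, 1953 of them at least 2-fold. With the replicate number as a block, 3332 genes were called, and since the numbers did not pair the arrays this is given as a description; it changed the call of 13 named or listed genes. The crossed pairing, which is also the hybridisation time as a block in the 4 arrays and was added after seeing the data, called 2399 genes. The same 4 arrays without a block gave 3185. Leaving out 1 array at a time gave 2421 to 4071 genes in all, 1231 to 2032 higher in pDCs and 1190 to 2039 higher in CD8α cDCs, and at 2-fold or more 1033 to 1240 and 948 to 1164. The lowest of these counts came from leaving out CD8α cDC replicate 2 or pDC replicate 2, and the highest from leaving out B cell replicate 1.

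Of 566 named or listed genes, 325 were called, and 257 of these remained called whichever array of the pair was left out. Sec61a1 alone changed direction, with a log2 difference of 0.56 (SE 0.14, adjusted p = 0.0106 by limma) when the mean of all its probe sets was taken and -0.28 with the brightest probe set alone. With 2 arrays per population, signals near the floor carry the least information, and 304 genes tested were below it in both populations.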

Other observations

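Of 3943 genes with several probe sets tested, 5 had probe sets called in opposite directions (limma, adjusted p under 0.05), and they were named after their values were seen. For Tsc22d1, a leucine zipper protein with several transcript forms, 1 probe set had signals of 5537 and 4976 in pDCs and 404 and 404 in CD8α cDCs (log2 3.7, adjusted p = 2.63e-05), and 3 more were called in this direction. Another Tsc22d1 probe set read 117 and 124 against 227 and 179 (log2 -0.74, adjusted p = 0.0225), and 1 more was called the same way as this. For Zbtb7a, a transcriptional repressor, a probe set at 91.7 and 76 against 39.3 and 42.1 was higher in pDCs (log2 1.04, adjusted p = 0.022), and another at 70.7 and 82.8 against 114 and 125 was higher in CD8α cDCs (log2 -0.64, adjusted p = 0.0246). Srsf2, a splicing factor, had a probe set at 43.4 and 34.7 against 19.2 and 10.7 (log2 0.96, adjusted p = 0.00983) and another at 207 and 127 against 284 and 420 (log2 -1.09, adjusted p = 0.00843). Eif4e2 and Snx6 were the other 2. No called member of the gene lists had a probe set called in the opposite direction.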
